A study of Mus musculus with 10 samples.

Results

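The genes described here make, break down or bind hyaluronan, or mark the lining of the joint: Prg4, Has1, Has2, Has3, Hyal1, Hyal2, Ugdh, Cd44, Tnfaip6 and Clic5. They were taken by name, and each was read from a probe set whose platform annotation names that gene alone, the one with the highest mean where there were several. Of the 10 genes, 9 had such a probe set, out of 18128 genes on the array with one. The exception was Hyal1, for which both probe sets are annotated to Naa80 and Hyal1 together. The 9 genes had 15 probe sets of their own among the 39993 in the table.

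Hyaluronan is a long, unsulphated sugar chain that gives synovial fluid its viscosity. Hyaluronan synthases (Has1, Has2, Has3) extrude it through the cell membrane from UDP-glucuronic acid and UDP-N-acetylglucosamine, hyaluronidases cut it, and surface receptors and secreted proteins bind it and build it into matrix. Lubricin, the mucin-like product of Prg4, works beside it as the boundary lubricant of cartilage, and the fibroblasts of the synovial lining secrete both.

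Synovium came from male DBA/1J mice with arthritis caused by collagen antibodies. Every animal had 1 mg of antibody against type II collagen into the abdomen on day 8 and 25 µg of bacterial lipopolysaccharide on day 11, ate an AIN-93G diet with corn oil as its fat, and was killed on day 12. The maslinic acid group (5 mice) received this olive triterpene by mouth each day, suspended in corn oil, at 200 mg/kg. The vehicle group (5 mice) received corn oil alone. Mice were 5 weeks old when they arrived, and the samples are labelled 8 weeks. The arrayed animals were picked from larger groups by a criterion that is not given in the sources used here, and untreated mice were not analysed here. Each array is a separate mouse, labelled a biological replicate.

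Levels are the deposited scores, whose scale is not given in the sources used here. Their median was 6.74, like a log2 intensity, but they hardly differed between mice: the median gene had an SD of 8.8 steps, where a step is 0.000001 of a score. Differences are therefore given in steps, as Hedges' g (the difference of the group means over the pooled SD, corrected for small samples) with its 95% interval, and with limma's p adjusted over all 18128 genes. Scores of different probe sets are not comparable as levels. Only 6743 genes had 10 distinct values over the 10 mice, and 3656 genes (20.2%) had 5 or fewer. No detection calls were used here and no score was at 0, so the presence of a transcript could not be decided from the scores. The 9 markers of lining fibroblasts had mean scores between 6.49 and 11.55, and the 11 markers of skeletal muscle, from which the tissue had been cleaned, between 6.87 and 13.26. Vehicle mice 3 and 5 stood apart, with limma array weights of 0.401 and 0.309 against 0.809 to 2.25 for the other 8 mice. No gene of the array passed an adjusted p of 0.05 (0%, with 0.461 as the lowest adjusted p), while 1552 genes (8.56%) had an unadjusted p under 0.05. Their g was positive for 765 (4.22%) and negative for 787 (4.34%). That split was 144 positive and 904 negative after quantile normalization, and 218 positive and 126 negative after centring each array on its median. The median g of all genes was 0.00 as deposited, -0.27 after quantile normalization and -0.39 after centring, so that the directions below hold for the scores as deposited unless another scaling is named. Both scalings altered the spread of genes that varied little. Centring took the SD over the 10 mice to 77.2 steps for Has3, against 1.9 as deposited, and to 65.3 steps for Has1, against 41.0, but left it at 27100 steps for Tnfaip6, against 27200. Quantile normalization left Ugdh with 1 value in all mice. It also altered genes of wider spread, with an SD of 2840 steps for Prg4, against 5630 as deposited, and 593 for Clic5, against 391.

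None of the 9 genes differed between maslinic acid and vehicle beyond the spread between mice. Their adjusted p lay between 0.833 and 1, their exact permutation p between 0.524 and 0.968, and 0 of 9 had groups that did not overlap, against 250 of all genes (1.38%). Hedges' g was positive for 6 genes and negative for 3, with a median of 0.27 and a range from -0.38 to 0.35. Of all genes that varied, 8681 had a positive g, 8750 a negative one and 607 equal group means. Each interval held 0 and covered at least the range from -0.80 to 0.76, so 5 mice per group could not resolve differences of that size in either direction. In whole tissue, fewer cells of a type and less RNA per cell cannot be told apart.

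**Figure D1:**
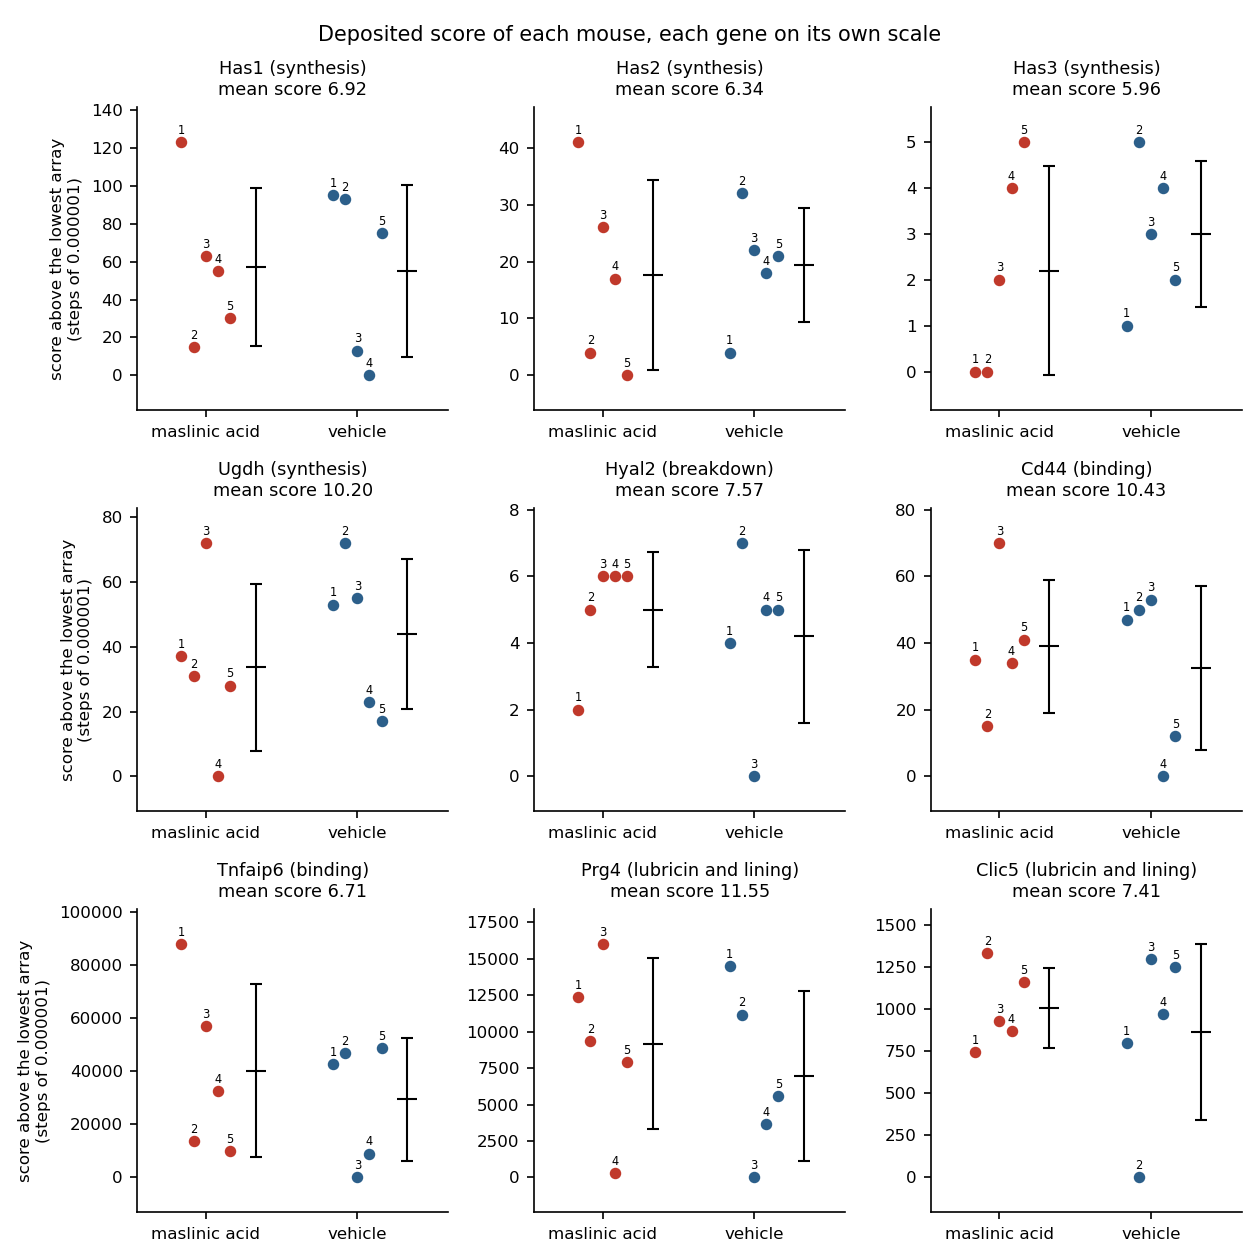
Deposited score of each mouse for the 9 genes, in steps of 0.000001 above the lowest mouse of that gene (y axis, each gene on its own scale), with maslinic acid on the left and vehicle on the right. Points are mice with their replicate numbers and bars are the mean and SD of 5 mice; the groups overlap for every gene.

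Among the synthesis genes, Has1 (chr17:17833691-17855589, GRCm38.p6), had a mean score of 6.92. It lay 123, 15, 63, 55 and 30 steps above its lowest value in maslinic acid mice 1 to 5, against 95, 93, 13, 0 and 75 steps in vehicle mice 1 to 5. The highest mouse was treated and the lowest was not, but the rest were mixed. The means were 57.2 ± 41.5 steps with maslinic acid and 55.2 ± 45.4 steps with vehicle (SD, n = 5 each), and g was 0.04 (-1.08 to 1.16, adjusted p = 1). Has2, the synthase that mouse embryos cannot do without (chr15:56665627-56694546), lay at 41, 4, 26, 17 and 0 steps in maslinic acid mice, against 4, 32, 22, 18 and 21 steps in vehicle mice. Treated mice held both its ends, and g was -0.12 (-1.24 to 1.01, adjusted p = 0.956). Its other probe set gave g = -0.05. Has3 (chr8:106870242-106882902) had values of 0, 0, 2, 4 and 5 steps in maslinic acid mice, against 1, 5, 3, 4 and 2 steps in vehicle mice. Its whole range was 5 steps, the resolution of the file, and g = -0.37 (-1.49 to 0.78, adjusted p = 0.854) stands for a difference of -0.8 steps.

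Ugdh (chr5:65413207-65435842) encodes the dehydrogenase that makes UDP-glucuronic acid, which all the synthases consume. It lay at 37, 31, 72, 0 and 28 steps in maslinic acid mice, against 53, 72, 55, 23 and 17 steps in vehicle mice. Maslinic acid mouse 3 and vehicle mouse 2 shared the top value. The means were 33.6 ± 25.8 steps with maslinic acid and 44.0 ± 23.2 steps with vehicle (SD, n = 5 each), with g = -0.38 (-1.51 to 0.76, adjusted p = 0.833). Across the 4 synthesis genes g was positive for 1 and negative for 3, with a median of -0.24, but Has1, Has2 and Has3 changed direction under quantile normalization (-0.80, 0.11 and 0.57) and Has1 also under centring (-0.44).

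Breakdown could be read from 1 gene. Hyal2, a hyaluronidase held at the cell surface by a lipid anchor (chr9:107567873-107572778), had values of 2, 5, 6, 6 and 6 steps in maslinic acid mice, against 4, 7, 0, 5 and 5 steps in vehicle mice. As with Has3, its range of 7 steps is close to the resolution. Its g was 0.33 (-0.81 to 1.45, adjusted p = 0.871), which became -0.29 after quantile normalization and -0.39 after centring.

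Hyal1, the hyaluronidase of lysosomes, lies next to Hyal2 (chr9:107576950-107581699) and overlaps Naa80 (chr9:107580669-107584048), which encodes the acetyltransferase of actin. The annotation names both genes for each of the 2 shared probe sets, but the transcript it lists belongs to Naa80 for the one with a mean score of 7.62 and to Hyal1 for the one at 7.36. Neither was counted as Hyal1. The Naa80 transcript's probe set lay at 70, 94, 88, 94 and 104 steps in maslinic acid mice, against 61, 53, 18, 62 and 0 steps in vehicle mice. Every treated mouse was above every vehicle mouse. The means were 90.0 ± 12.6 steps with maslinic acid and 38.8 ± 28.2 steps with vehicle (SD, n = 5 each), with g = 2.12 (0.57 to 3.60) and an exact permutation p of 0.00794, the smallest that 252 assignments allow. The adjusted p over all 39993 probe sets was 0.464, and 544 of them (1.36%) had groups that did not overlap. After rescaling the separation was gone, with g = 0.02 after quantile normalization and 0.20 after centring. The Hyal1 transcript's probe set lay at 38, 48, 48, 19 and 71 steps in maslinic acid mice, against 37, 46, 15, 56 and 0 steps in vehicle mice. There the groups overlapped, with g = 0.60 (-0.57 to 1.74, exact permutation p = 0.325), and g was -0.08 without vehicle mice 3 and 5, -0.38 after quantile normalization and -0.24 after centring.

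Binding was read from 2 genes. Cd44, the main surface receptor for hyaluronan (chr2:102811141-102901669), had 3 probe sets, which did not point the same way. In the one with the highest mean score, 10.43, maslinic acid mice lay at 35, 15, 70, 34 and 41 steps, against 47, 50, 53, 0 and 12 steps in vehicle mice. Vehicle mice 4 and 5 were low and the other 3 close together, and g was 0.27 (-0.87 to 1.39, adjusted p = 0.896). The probe set with a mean score of 10.28 gave g = -0.55 (-1.69 to 0.62, exact permutation p = 0.349). In the one at 8.74 the values were 145, 194, 0, 183 and 23 steps in maslinic acid mice, against 273, 451, 258, 232 and 43 steps in vehicle mice. Vehicle mouse 5 alone lay among the treated mice there, with g = -1.06 (-2.27 to 0.20, exact permutation p = 0.103, adjusted p = 0.594 over all probe sets). No direction can be given for Cd44: the first probe set also turned to -0.80 after quantile normalization and to -0.29 after centring, and the mean of all 3 gave -0.93.

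**Figure D2:**
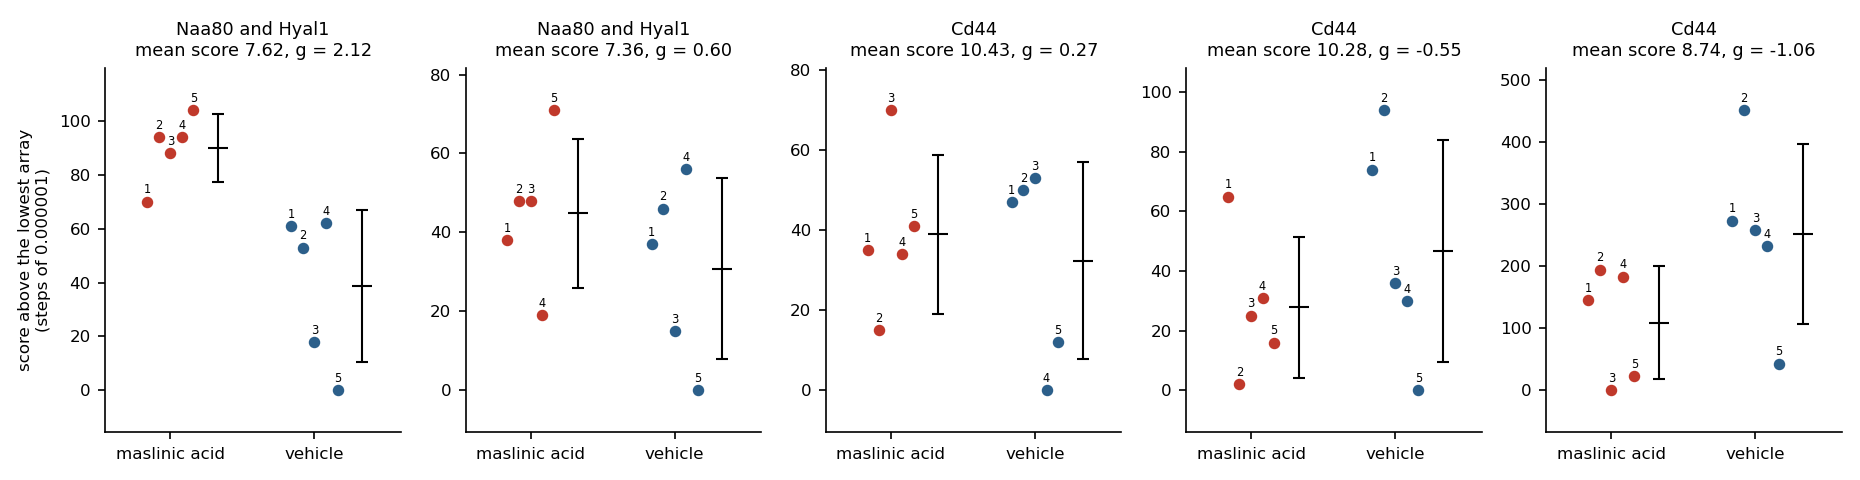
Scores of single mice, in steps above the lowest mouse (y axis), for the 2 probe sets shared by Naa80 and Hyal1 and the 3 of Cd44, with maslinic acid left of vehicle in each panel. Bars are the mean and SD of 5 mice; the groups separate in the first panel alone (g = 2.12, listed under a Naa80 transcript), and the Cd44 panels run from g = 0.27 to g = -1.06.

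Tnfaip6 (chr2:52038113-52056681) encodes TSG-6, a secreted protein induced in inflammation that moves heavy chains of inter-alpha-inhibitor onto hyaluronan. Its mean score was 6.71, just under the median of all scores, 6.74. Its values spread over 87817 steps, the widest of the 9 genes, and its SD ranked 39th of 18128 (percentile 99.8). It lay at 87817, 13581, 57007, 32524 and 9884 steps in maslinic acid mice, against 42499, 46658, 0, 8939 and 48508 steps in vehicle mice. Both groups held high and low mice. The means were 40200 ± 32500 steps with maslinic acid and 29300 ± 23000 steps with vehicle (SD, n = 5 each), with g = 0.35 (-0.80 to 1.47, adjusted p = 0.854). Without maslinic acid mouse 1, g was -0.04.

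Prg4 (chr1:150449412-150466221), at a mean score of 11.55, also varied more than most genes, with an SD at rank 169 (percentile 99.1). It lay at 12362, 9340, 16017, 300 and 7915 steps in maslinic acid mice, against 14496, 11167, 0, 3631 and 5561 steps in vehicle mice. A low mouse stood in each group, maslinic acid mouse 4 and vehicle mouse 3. The means were 9190 ± 5860 steps with maslinic acid and 6970 ± 5830 steps with vehicle (SD, n = 5 each), with g = 0.34 (-0.80 to 1.46, adjusted p = 0.857).

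Clic5 (chr17:44134762-44280169), a chloride intracellular channel protein used as a marker of lining fibroblasts, lay at 747, 1333, 928, 870 and 1163 steps in maslinic acid mice, against 799, 0, 1299, 971 and 1251 steps in vehicle mice. Vehicle mouse 2 was the lowest in all 4 of its probe sets, which gave g of 0.32 (-0.82 to 1.44, adjusted p = 0.866), 0.21, 0.08 and 0.59. Without that mouse g was -0.27, and after quantile normalization -0.31. In the probe sets used, binding and lining genes thus all had a positive g in the scores as deposited, with medians of 0.31 and 0.33. The other probe sets of Cd44 had a negative g (-0.55 and -1.06), and the one used turned negative under both other scalings. Clic5 turned negative under quantile normalization.

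**Figure D3:**
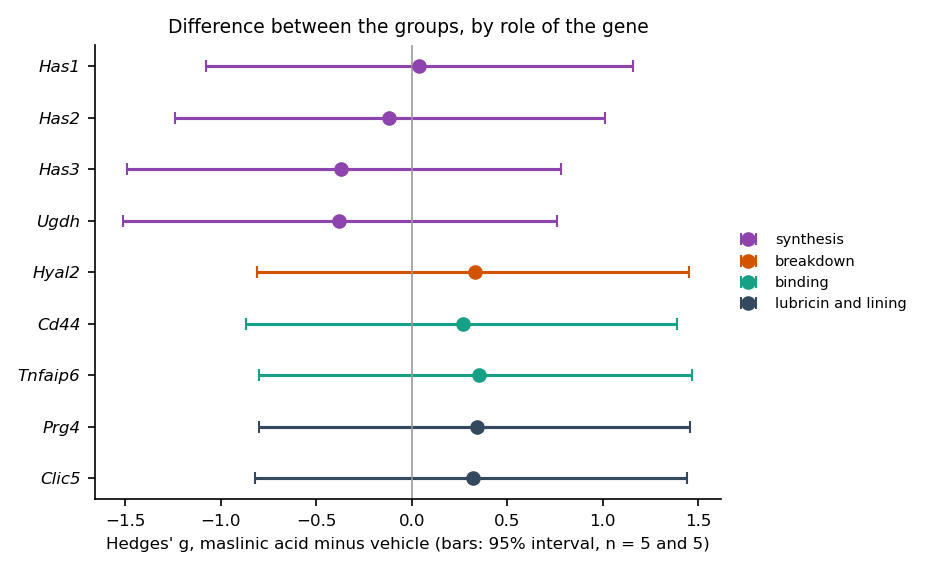
Hedges' g of each gene, maslinic acid minus vehicle (x axis, in pooled SDs), ordered by role from synthesis at the top to lubricin and lining at the bottom. Points are estimates and bars 95% intervals from 5 mice per group; every interval holds 0.

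Leaving out vehicle mice 3 and 5, the arrays of low weight, turned the sign of 3 genes: g was -0.09 for Prg4, -0.10 for Has1 and -0.17 for Hyal2. It was -0.02 for Has2, -0.44 for Has3, -0.54 for Ugdh, 0.25 for Cd44, 0.22 for Tnfaip6 and 1.02 for Clic5, where the adjusted p was 0.794. Other tissue also moved between mice. All 11 muscle markers had a positive g (median 0.32, and 0.31 after centring; all 5 with a value after quantile normalization, median 0.26), and their mean z-score ran from -0.751 to 0.902 in maslinic acid mice and from -1.92 in vehicle mouse 2 to 0.699 in vehicle mice. Of 9 neutrophil markers measured, 8 had a negative g (median -0.57, and -0.53 after centring), but after quantile normalization only 4 had a value, 2 positive and 2 negative (median -0.09). The list had mean z-scores from -0.528 to -0.0219 in maslinic acid mice and from -0.068 to 1.12 in vehicle mice. With the muscle score in the fit the sign turned for 3 genes, to 0.13 for Ugdh, 0.09 for Has2 and -0.11 for Clic5, while g was 0.87 for Prg4, 0.87 for Cd44, 0.61 for Tnfaip6, 0.54 for Hyal2, 0.35 for Has1 and -0.24 for Has3. With the neutrophil score in the fit the sign turned for 6 genes, to -0.28 for Prg4, -0.27 for Has1, -0.29 for Tnfaip6, -0.12 for Hyal2, 0.43 for Has3 and 0.02 for Ugdh, while g was 1.21 for Cd44 (adjusted p = 0.971), 0.18 for Clic5 and -0.08 for Has2. Because the neutrophil score overlapped little between the groups, this fit can hardly tell it apart from treatment.

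Although the groups did not separate, some of these genes varied together from mouse to mouse. Over 36 pairs, 3 had an unadjusted permutation p under 0.05 and 1 passed after Benjamini-Hochberg adjustment. Has1 and Tnfaip6 had r = 0.91 over the 10 mice (permutation p = 0.00036, adjusted p = 0.013) and rho = 0.85 (permutation p = 0.003, adjusted p = 0.0544). The same correlation was 0.96 in maslinic acid mice alone, 0.94 in vehicle mice alone and 0.93 over deviations from the group means. Without maslinic acid mouse 1 and vehicle mouse 4, the farthest from the Has1 median, r was 0.86 (permutation p = 0.0105, adjusted p = 0.19), and without vehicle mice 3 and 5 it was 0.90 (permutation p = 0.00264, adjusted p = 0.095). Both genes were lowest in vehicle mice 3 and 4 and maslinic acid mice 2 and 5, and highest in maslinic acid mouse 1. The relation holds for the scores as deposited: r was 0.27 after quantile normalization and -0.26 after centring, settings added after seeing the data, under which the SD of Has1 was 113 and 65.3 steps.

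**Figure D4:**
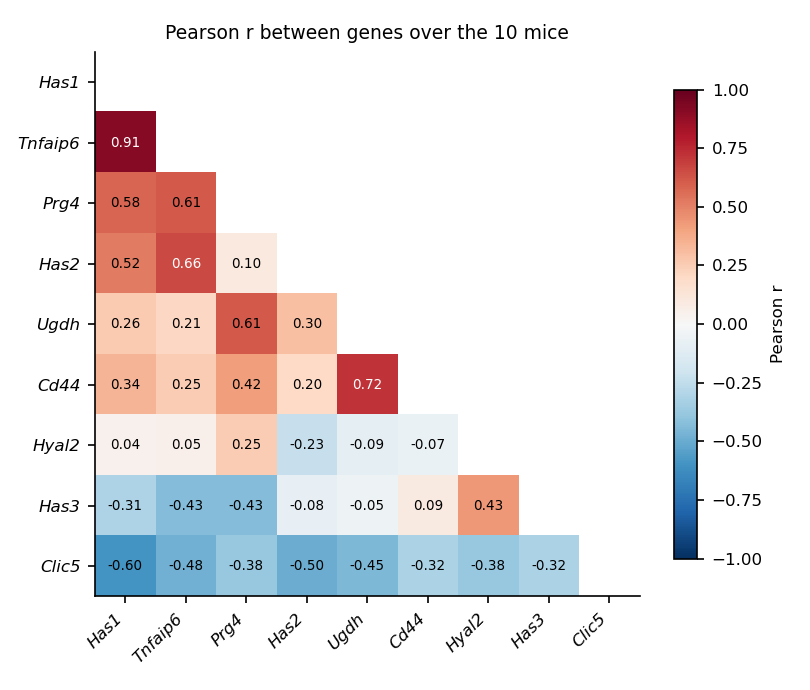
Pearson r over the 10 mice for each of the 36 pairs of genes (rows against columns, colour scale from -1 to 1). Has1 and Tnfaip6 stand out at 0.91, Ugdh and Cd44 follow at 0.72, and the Clic5 row is negative throughout.

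Ugdh and Cd44 had r = 0.72 (permutation p = 0.0187, adjusted p = 0.336) and rho = 0.84 (adjusted p = 0.0544). That r was 0.54 without vehicle mouse 2 and maslinic acid mouse 3, the farthest from the Ugdh median. It was 0.98 after centring, which took the SD of Ugdh from 23.8 to 80.0 steps and of Cd44 from 21.4 to 82.6. Cd44 was read here from its probe set of highest mean score alone. Whether its other probe sets, which differed in direction between the groups, follow Ugdh was not tested. Has2 and Tnfaip6 had r = 0.66 (permutation p = 0.0371, adjusted p = 0.377), with 0.99 among maslinic acid mice and -0.00 among vehicle mice, and r was 0.30 without maslinic acid mice 1 and 5. Prg4 had r = 0.61 with Tnfaip6, 0.58 with Has1 and 0.61 with Ugdh (adjusted p = 0.377, 0.398 and 0.377). Clic5 ran against all 8 other genes over the 10 mice, with r between -0.32 and -0.60, none of them past adjustment. With Ugdh, r was 0.06 without vehicle mouse 2, the lowest for Clic5, and maslinic acid mouse 3. In maslinic acid mice alone, r was 0.44 with Hyal2 and 0.03 with Has3, and negative with the rest. Among 18 relations of the 9 genes with the muscle and neutrophil scores, 1 passed: Ugdh was low where muscle markers were high (r = -0.83, permutation p = 0.00142, adjusted p = 0.0256; rho = -0.75, adjusted p = 0.277), and r was -0.72 without vehicle mouse 2 and maslinic acid mouse 3 and 0.07 after centring. Clic5 had r = 0.73 with the muscle score (adjusted p = 0.333), which was -0.04 without vehicle mouse 2 and maslinic acid mouse 2.

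Of all 6738 other genes with 10 distinct values, the one most like Tnfaip6 over the 10 mice was Uap1 (r = 0.952, rho = 0.95; 0.90 after quantile normalization and 0.95 after centring), and by Pearson's r Uap1 was also first for Has1 (r = 0.90, rho = 0.87; 0.37 and -0.20 after those scalings). The order among the nearest genes depends on the measure: for Has1, Slc16a1 had the higher rho (0.88), and without vehicle mice 3 and 5 r was 0.94 for Slc16a1, 0.92 for Ereg and 0.88 for Uap1. For Tnfaip6 without those mice r was 0.95 for Ereg and 0.94 for Uap1. Uap1 encodes the pyrophosphorylase that makes UDP-N-acetylglucosamine, the other sugar that hyaluronan synthases use. Its values, at a mean score of 9.22, were 4982, 1701, 4283, 1571 and 670 steps in maslinic acid mice, against 3441, 3674, 0, 261 and 3099 steps in vehicle mice. High and low mice were again spread over both groups, and g was 0.27 (adjusted p = 0.896). Next for Tnfaip6 came Rps15a-ps6, a ribosomal pseudogene whose probes may read its parent gene (0.939), Ereg, an EGF receptor ligand (0.902), and Mycbp2, a ubiquitin ligase (0.902). Next for Has1 came Slc16a1, a lactate transporter (0.89), Ereg (0.881) and Cxcl5, a chemokine for neutrophils (0.88). The genes most like Prg4 were Il6st, the signalling receptor chain of the interleukin-6 family (0.959), Lima1, an actin-binding protein (0.947), Bmper, which binds bone morphogenetic proteins (0.943), and Ism1, a secreted protein (0.937). These are ranks among many genes over the same mice and carry no test.

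**Figure D5:**
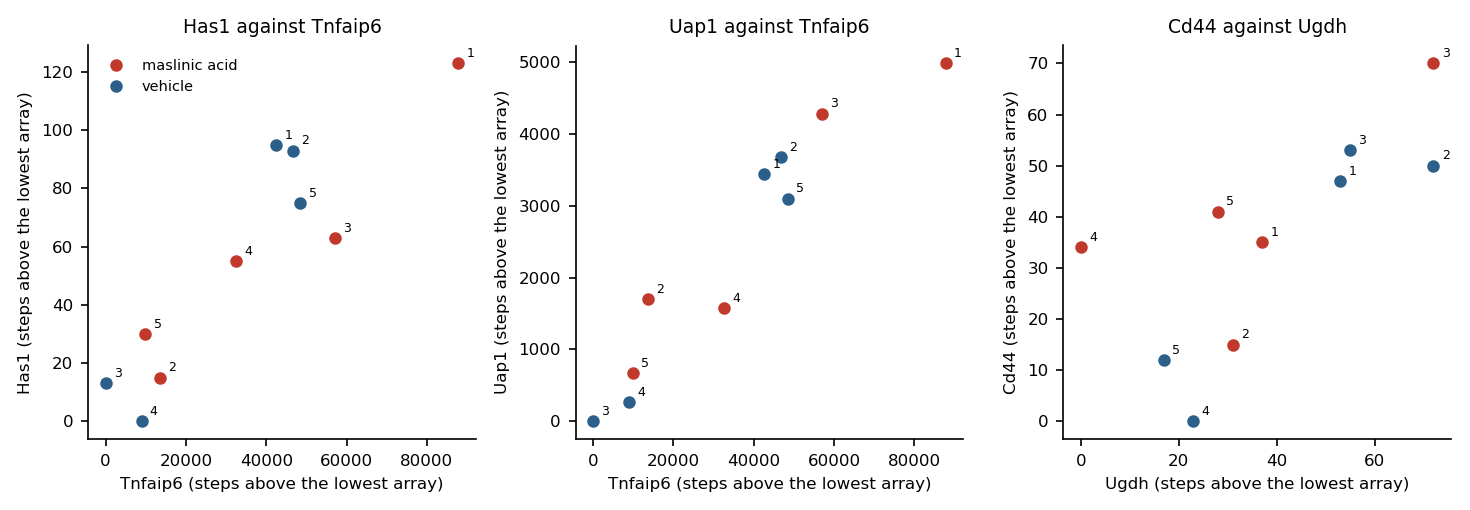
Scores of single mice in steps above the lowest mouse, with Has1 against Tnfaip6 (left), Uap1 against Tnfaip6 (middle) and Cd44 against Ugdh (right). Red points are maslinic acid mice and blue points vehicle mice, numbered by replicate; both colours lie along the same rising band in the first 2 panels.

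The letters before the start sites of Has1, Tnfaip6 and Uap1, which varied together in the scores as deposited, are shown as a description, from RefSeq's windows of 250 bases before to 50 after the start in GRCm38.p6. Windows were found for 7 of the 10 genes (Has1, Ugdh, Hyal1, Hyal2, Cd44, Tnfaip6 and Clic5) and for Uap1, and not for Prg4, Has2 and Has3. Both strands were searched for the TATA box TATAAA, the cAMP response element TGACGTCA, the AP-1 site TGANTCA, the pattern GGNNTTTCC of NF-kB sites and the CCAAT box. Capitals mark the matches. The Has1 window lies inside the annotated span of the gene, and 30 bases of it are given (chr17:17855253-17855282, minus strand). The Tnfaip6 stretch is chr2:52037863-52038112 (plus strand) and the Uap1 stretch is chr1:170174965-170175214 (minus strand). All are written 5′ to 3′.
Has1: cagacttgtccTGACGTCAgccctcctcca
Tnfaip6: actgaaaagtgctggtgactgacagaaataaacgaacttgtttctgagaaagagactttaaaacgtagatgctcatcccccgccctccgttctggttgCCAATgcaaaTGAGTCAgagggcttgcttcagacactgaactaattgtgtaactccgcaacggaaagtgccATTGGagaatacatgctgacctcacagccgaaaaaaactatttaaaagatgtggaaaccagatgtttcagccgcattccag
Uap1: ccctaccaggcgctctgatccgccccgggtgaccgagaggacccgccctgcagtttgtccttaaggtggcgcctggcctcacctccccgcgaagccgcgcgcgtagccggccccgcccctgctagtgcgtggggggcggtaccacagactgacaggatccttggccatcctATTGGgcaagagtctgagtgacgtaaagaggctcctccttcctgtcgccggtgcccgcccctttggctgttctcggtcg

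Has1 held a TGACGTCA that begins 83 bases before the start, which 1.79% of all 32851 windows contain, and a CCAAT 203 bases before it. Tnfaip6 held a TGANTCA at 142 bases before the start, found in 7.81% of windows, and CCAAT at 152 and, on the other strand, at 81 bases. Uap1 held CCAAT on the other strand at 79 bases. CCAAT on either strand occurs in 37.4% of windows, and it was the only searched motif that all 3 windows shared. Hyal1 had a CCAAT on the other strand at 49 bases. The windows of Ugdh, Hyal2, Cd44 and Clic5 held none of the 5 motifs, and none of the 8 windows held TATAAA (13.6% of all windows) or GGNNTTTCC (5.82%).

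The wider pathway was read from lists chosen by role, but with earlier results of these data known. No test was run on a list as a whole, so their counts and shares are descriptions. In the supply and transport of hyaluronan precursors 9 of 10 genes were measured, 7 with a positive and 2 with a negative g (median 0.27, and -0.15 after quantile normalization), and 0 passed adjustment. Gfpt1, the entry enzyme of the hexosamine pathway, lay at 204, 81, 216, 143 and 209 steps in maslinic acid mice, against 133, 116, 0, 98 and 19 steps in vehicle mice. One treated mouse lay among the vehicle mice, and g = 1.49 (0.13 to 2.79, exact permutation p = 0.0476, adjusted p = 0.549) turned to -1.32 after quantile normalization. Slc35d1, which carries UDP-sugars into the endoplasmic reticulum, had g = 1.05 (-0.21 to 2.25), with 2.16 without maslinic acid mouse 2, -0.03 after quantile normalization and -0.13 after centring. Its probe set with the most distinct values gave g = 0.04. In breakdown and uptake 10 of 11 genes were measured, 7 with a positive g, 2 with a negative one and 1 with equal means, with a median of 0.48, 0.08 after quantile normalization and 0.17 after centring, and 0 past adjustment. Cemip, a hyaluronan-degrading protein of skin and synovial fibroblasts, had g = 0.83 (-0.38 to 1.99, adjusted p = 0.667), with 1.58 without maslinic acid mouse 2. Stab1, a scavenger receptor that takes up hyaluronan, had g = 0.80 (-0.41 to 1.96, adjusted p = 0.672). After quantile normalization g was 0.24 for Cemip and 0.08 for Stab1, and after centring 0.69 and 0.54.

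Among 17 hyaluronan-binding proteins and receptors 10 had a positive and 7 a negative g, with a median of 0.10, which was -0.06 after quantile normalization and -0.38 after centring. Hmmr, a hyaluronan receptor that also serves the mitotic spindle, lay at 216, 172, 0, 179 and 200 steps in maslinic acid mice, against 240, 285, 534, 291 and 426 steps in vehicle mice. Every treated mouse was below every vehicle mouse, and 250 of all genes (1.38%) had groups that did not overlap. For Hmmr g was -1.72 (-3.08 to -0.29), with an exact permutation p of 0.00794, the smallest possible, and an adjusted p of 0.533. That g was -0.63 after quantile normalization, -1.25 after centring and -1.15 with the replicate number as a block. Ambp, whose product includes bikunin, a chain of the inter-alpha-inhibitor from which TSG-6 takes heavy chains, had g = -1.76 (-3.14 to -0.33, exact permutation p = 0.0317, adjusted p = 0.533), over a range of 10 steps, and 0.16 after quantile normalization.

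Of 16 measured regulators of lubricin and hyaluronan synthase genes, 11 had a positive g, with a median of 0.69. An unadjusted p under 0.05 was found for 6 (37.5%), against 8.56% of all genes in either direction. All 6 were on the positive side, which held 4.22% of all genes. After quantile normalization 8 had a positive and 7 a negative g (median 0.08), with 2 such genes on the positive and 1 on the negative side, beside 144 and 901 of the 16279 genes for which g could be computed. After centring 10 were positive and 6 negative (median 0.22), with 3 such genes on the positive and 0 on the negative side, beside 218 and 126 of 18128 genes. None of the 6 passed adjustment: Foxo1, Yap1, Egfr, Pdgfrb, Tgfbr2 and Foxo3. Foxo1, a transcription factor needed for normal Prg4 levels in mouse cartilage, lay at 1762, 2488, 2422, 3502 and 2617 steps in maslinic acid mice, against 1545, 1192, 730, 1819 and 0 steps in vehicle mice. Only vehicle mouse 4 reached into the treated range, with g = 2.02 (0.50 to 3.47, exact permutation p = 0.0159, adjusted p = 0.525), and g was 1.39 after quantile normalization and 1.98 after centring. Yap1, the Hippo pathway coactivator, lay at 66, 78, 132, 63 and 101 steps in maslinic acid mice, against 67, 20, 0, 61 and 9 steps in vehicle mice, with g = 1.72 (0.29 to 3.08, exact permutation p = 0.0238, adjusted p = 0.533), against 0.17 and 0.28 under those 2 scalings. The inflammatory inducers in that list had values of -0.60 for Il1b, -0.48 for Il6 and -0.45 for Tnf (adjusted p = 0.754, 0.806 and 0.815).

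Further genes of lining fibroblasts gave a median g of 0.18 over 12 genes, 9 positive and 3 negative (median -0.25 after quantile normalization and -0.04 after centring), and Hbegf and Creb5 also stand among the regulators. The lowest p in this list belonged to Cdh11, the cadherin that holds lining fibroblasts together (1.24, -0.06 to 2.47, and -0.25 after quantile normalization), and Col22a1, a collagen of tissue junctions (0.86, -0.36 to 2.03, and 1.72 without vehicle mouse 3). All 10 measured genes of sublining fibroblasts had a positive g, with a median of 0.50 (8 of 10 after quantile normalization and 9 of 10 after centring), among them Cd34 (1.08, -0.18 to 2.28) and Apod, which encodes a lipid carrier (0.75, -0.45 to 1.91). Neither fibroblast list had a gene with an unadjusted p under 0.05. Thy1, the surface glycoprotein of sublining fibroblasts, had g = 0.56, while Pdpn and Vcam1, podoplanin and an adhesion receptor of the lining, had 0.07 and -0.28. All 9 cartilage markers also had a positive g (median 0.45; 7 of 9 after quantile normalization and 8 of 9 after centring), with 0.61 for Col2a1 and 0.62 for Acan, which were 1.15 and 1.39 without maslinic acid mouse 2 and 0.29 and 0.33 without vehicle mouse 5. So did all 5 bone markers measured (median 0.98; 0.71 after centring, and 0.40 over the 3 with a value after quantile normalization) and all 4 fat markers measured (median 0.87; 0.53 after centring, and 0.91 over the 3 with a value after quantile normalization). All 5 endothelial markers had a positive g as deposited (median 0.77), but 3 of 5 after each of the other scalings (median 0.47 after quantile normalization and 0.71 after centring). Other lists were mixed. Of 5 skin markers, 2 had a positive g, 2 a negative one and 1 equal means (median 0.0, and -0.39 after centring). Of 7 markers of lining macrophages, 4 had a positive and 3 a negative g (median 0.2), from -1.65 for Cx3cr1 to 1.31 for Mertk. The mean z-score of the cartilage list ran from -1.29 to 1.20 in maslinic acid mice and from -1.35 to 0.553 in vehicle mice, and the part of such tissue in the values of the hyaluronan genes was not tested.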

How the data were processed

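Left hind leg synovium of 10 mice gave total RNA, which was labelled as biotinylated cRNA and hybridised to Affymetrix mouse genome arrays, per the labels' protocols. The authors deposited 1 value per probe set and array, named a score here. The submitters' processing notes name R 3.2.1; how background, normalization and summary were handled is not given in the sources used here. Where log2 values had been foreseen, the scores were tested as they stand. Rounding to 6 decimals limits genes of small spread. The number of arrays limits the precision, and the labels give no batch.

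Gene names came from the platform annotation (34202 probe sets named 1 gene, 931 several, 4860 were unnamed here), and the highest mean picked 1 per gene. Entrez identifiers matched RefSeq (GRCm38.p6) for 34028 probe sets and changed 0 symbols. Both groups were compared in 1 fit without covariates with limma 3.58.1 in R 4.3.3 (lmFit, eBayes, two-sided, Benjamini-Hochberg, threshold 0.05, prior degrees of freedom 0.478), beside two-sided exact permutation tests over 252 assignments. Correlations used 100000 permutations, and those with marker scores were added after seeing the data. Python 3.11.15, pandas 2.3.3, numpy 2.4.6, scipy 1.17.1 and matplotlib 3.10.9 did the rest. The fit was tested on simulated data.

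The genes, lists and tests were chosen with earlier results of these data known. Named were the 10 genes, the 2 of lowest p in each wider list, the 4 most like Prg4, Has1 and Tnfaip6, and 6 tissue genes; Uap1 is among the most alike, and the other regulators and inflammatory inducers, named from their list, were chosen after their values were seen. Other settings tried were quantile normalization, centring, filters on level and rounding, trended and robust eBayes, array weights, muscle and neutrophil covariates, other ways to choose probe sets, the replicate number as a block, and arrays left out.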

Additional observations from a re-analysis of the deposited data

Results flagged for a closer look

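Among the 27 genes and 54 groups examined, 3 held a mouse whose gap to its nearest neighbour took more of the group's range than Dixon's 95% critical value for 5 samples; chance alone flags about 1 group in 20. In maslinic acid mice, Hyal2 was lowest in mouse 1, by 0.75 of the group's range, which is a gap of whole steps of the file's last decimal. Hmmr was lowest in maslinic acid mouse 3, by 0.796 of the range. Apod was highest in maslinic acid mouse 3, by 0.746 of the range. No cause was tested.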

How the results depend on the processing

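Values are Hedges' g. Under 23 settings none of the 9 genes passed adjustment (lowest adjusted p 0.628), and apart from single mice left out, 84 of 108 values kept their direction and 24 did not. The 84 include values that could not turn. Fitting all probe sets together and trended, robust eBayes leave each gene's g as it was. So do other choices of probe set for genes with a single probe set. Filtering on level or rounding leaves the g of the genes it keeps. The level filter dropped Has1, Has2, Has3 and Tnfaip6. The rounding filter dropped Has2, Has3, Ugdh and Hyal2, so neither setting says anything about the genes it dropped. Quantile normalization turned Has1 to -0.80, Has2 to 0.11, Has3 to 0.57, Hyal2 to -0.29, Cd44 to -0.80, Clic5 to -0.31, Gfpt1 to -1.32, Slc35d1 to -0.03, Ambp to 0.16 and Cdh11 to -0.25. Centring on array medians turned Has1 to -0.44, Hyal2 to -0.39, Cd44 to -0.29 and Slc35d1 to -0.13. Array weights turned Prg4 to -0.01, Has1 to -0.04 and Pdpn to -0.23. The muscle score as a covariate turned Has2 to 0.09, Ugdh to 0.13 and Clic5 to -0.11. The neutrophil score turned Prg4 to -0.28, Has1 to -0.27, Has3 to 0.43, Ugdh to 0.02, Hyal2 to -0.12, Tnfaip6 to -0.29, Cd34 to -0.10, Apod to -0.75, Pdpn to -0.75 and Vcam1 to 1.27. Without vehicle mice 3 and 5, Prg4 was -0.09, Has1 -0.10, Hyal2 -0.17, Thy1 -0.37, Pdpn -0.20 and Vcam1 0.14. The mean of all probe sets turned Cd44 to -0.93. Centring raised the SD of Has1, Has2, Has3, Ugdh, Hyal2 and Cd44 over the mice, and quantile normalization gave no value for Ugdh. The other causes were not tested.

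The replicate number as a block left 0 genes called and 1230 at an unadjusted p under 0.05, with 0.31 for Prg4, 0.04 for Has1, -0.49 for Ugdh and 0.28 for Tnfaip6. Correlations between mice of the same number were 0.35, -0.389, -0.177, 0.338 and -0.0165. By this measure 2 maslinic acid mice were most like the vehicle mouse of their own number. Whether the numbers pair the mice cannot be decided from these values. Quantile normalization called 3 genes, Klf3, Rnf130 and 2310039H08Rik, each left with 1 value per group, and trended, robust eBayes called 1, BC016579 (3 distinct values, adjusted p = 0.0197). Of all genes, 344 had an unadjusted p under 0.05 after centring, 653 among genes with 10 distinct values, 809 among genes above the median score (fewer genes were tested in both) and 860 with the neutrophil covariate, against 1552; with single mice left out, 1119 to 2129. Of 36 pairs, 0 passed without vehicle mice 3 and 5, 0 without the 2 farthest mice and 0 of those with a value after quantile normalization. After centring, which subtracts each array's median from every gene, 17 passed. There r turned to -0.26 for Has1 and Tnfaip6, -0.37 for Prg4 and Ugdh and -0.32 for Prg4 and Has1.

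Leaving out each mouse gave 0.08 to 0.79 for Prg4, -0.34 to 0.26 for Has1, -0.62 to 0.18 for Has2, -0.77 to -0.12 for Has3, -0.86 to -0.08 for Ugdh, -0.14 to 0.69 for Hyal2, -0.07 to 0.52 for Cd44, -0.04 to 0.60 for Tnfaip6, -0.27 to 0.57 for Clic5, -0.02 to 0.64 for Myh1, -0.31 to 0.29 for Pdpn and -0.47 to 0.23 for Vcam1. Ranges past 1.5 times the value with no change of sign were 0.81 to 2.16 for Slc35d1, 0.59 to 1.58 for Cemip, 0.52 to 1.16 for Stab1, -2.84 to -1.54 for Ambp, 0.59 to 1.72 for Col22a1, 0.47 to 1.18 for Apod, 0.29 to 1.15 for Col2a1, 0.33 to 1.39 for Acan and 0.21 to 1.01 for Thy1. Genes whose spread is near the last decimal, Has3, Hyal2 and Ambp among them, are limited by rounding.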
